A study of Mus musculus with 6 samples.

Results

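Fgf12, Mb21d2 and Hrasls are 3 of the 24661 genes quantified by RNA-Seq in olfactory mucosa, with 3 mice in the wild-type group and 3 in the RTP1,2DKO group. They were chosen by the present contrast, as genes within 10 Mb of Rtp1 or Rtp2 on chromosome 16 that changed in RTP1,2DKO, so their fold changes and adjusted p-values describe how they were selected and are not independent results. The wild-type mice had both copies of Rtp1 and Rtp2, and RTP1,2DKO mice had neither. All mice were 21 days old, untreated and labelled C57BL/6, and the whole mucosa of each mouse, with the epithelium and the tissue around it, gave 1 library. Rtp1 and Rtp2 were removed one after the other in ES cells of the EF-1 line, a 129/B6 hybrid. In the targeted alleles loxP stands in place of the Rtp1 coding region and a puromycin cassette in place of that of Rtp2. The 0.492 Mb between the targeted genes was left in place, and the chimeras were bred to C57BL/6. DNA linked to the targeted genes can therefore come from the ES cells in every RTP1,2DKO mouse. Its strain origin, the inserted sequences and the loss of the RTPs all follow the same grouping of mice and cannot be told apart.

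RTP1 and RTP2 are accessory proteins of olfactory sensory neurons (OSNs) that help odorant receptors (ORs) reach the cell surface. Fgf12 encodes a fibroblast growth factor homologous factor, an intracellular protein that is not secreted and that binds the C-terminal tail of voltage-gated sodium channels. Hrasls, now named Plaat1, encodes an enzyme of the HRAS-like suppressor family with phospholipase and acyltransferase activity. Mb21d2 encodes a protein with a Mab-21 domain, the fold it shares with the DNA sensor cGAS (Mb21d1), and little is known of its role in the nose.

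In GENCODE M21 (GRCm38) the members lie in a row on chromosome 16, with no other protein-coding gene among them. Fgf12 (ENSMUSG00000022523.10) spans 28160098 to 28753068 on the minus strand. Mb21d2 (ENSMUSG00000051065.9) follows after 73.1 kb, from 28826176 to 28929673 on the minus strand. Hrasls (ENSMUSG00000022525.13) lies 280.0 kb further on, from 29209695 to 29230531 on the plus strand. Together they cover 1.07 Mb. Rtp1 spans 23429133 to 23433960 and Rtp2 spans 23925548 to 23932394. Fgf12 thus lies 4.23 Mb past Rtp2, and Mb21d2 and Hrasls lie 4.89 and 5.28 Mb past it, measured between the nearest ends of the genes. The only annotated gene that overlaps a member is Mir690, inside Fgf12.

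The sequence around the start sites of the members is shown for 4 of the 7 that RefSeq (GRCm38.p6) lists for them. Each window holds 250 bases before and 50 bases after a start and is written 5′ to 3′ along the gene's strand. The windows shown for Fgf12 are that of its most upstream start, at chr16:28753194-28753493 (minus strand), and that of its most downstream start, at chr16:28446026-28446325 (minus strand). That of Mb21d2 is chr16:28929649-28929948 (minus strand), and that of Hrasls is its upstream start, chr16:29209445-29209744 (plus strand). Capitals mark matches to the searched motifs.
Fgf12, upstream start: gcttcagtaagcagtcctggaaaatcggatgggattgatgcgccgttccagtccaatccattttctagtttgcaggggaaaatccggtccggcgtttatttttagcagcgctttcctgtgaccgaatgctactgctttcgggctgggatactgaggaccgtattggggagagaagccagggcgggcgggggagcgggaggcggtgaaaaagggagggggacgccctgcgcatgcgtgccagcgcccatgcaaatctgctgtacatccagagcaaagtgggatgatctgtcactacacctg
Fgf12, downstream start: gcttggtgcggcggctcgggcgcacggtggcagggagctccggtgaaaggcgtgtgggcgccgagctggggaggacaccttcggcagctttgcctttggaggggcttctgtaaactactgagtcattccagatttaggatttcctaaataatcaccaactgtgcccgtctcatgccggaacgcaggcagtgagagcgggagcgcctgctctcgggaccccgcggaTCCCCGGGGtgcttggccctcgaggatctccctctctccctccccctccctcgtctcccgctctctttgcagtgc
Mb21d2: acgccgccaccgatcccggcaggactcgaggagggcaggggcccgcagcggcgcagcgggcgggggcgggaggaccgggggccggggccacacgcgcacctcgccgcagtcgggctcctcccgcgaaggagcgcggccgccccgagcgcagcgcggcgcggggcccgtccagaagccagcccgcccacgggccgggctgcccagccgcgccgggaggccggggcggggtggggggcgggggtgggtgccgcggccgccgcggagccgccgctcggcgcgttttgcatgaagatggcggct
Hrasls, upstream start: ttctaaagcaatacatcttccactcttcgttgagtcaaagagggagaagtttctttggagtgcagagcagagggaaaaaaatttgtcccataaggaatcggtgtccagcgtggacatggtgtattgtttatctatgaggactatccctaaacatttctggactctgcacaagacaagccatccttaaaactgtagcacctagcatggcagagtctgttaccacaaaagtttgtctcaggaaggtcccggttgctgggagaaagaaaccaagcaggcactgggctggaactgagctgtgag
Searched on both strands were CCCNNGGGA, the Olf/Ebf site described at many genes of OSNs, TAATTA, a homeodomain core, and TATAAA, the TATA box. Of all 32851 windows in the table, 6.56% held CCCNNGGGA, 5.29% TAATTA and 13.6% TATAAA. Among the 7 windows of the members there was 1 match in all, to CCCNNGGGA, at the downstream start of Fgf12. The 4 windows of Fgf12 held between 56.3% and 71.7% G and C, and that of Mb21d2 held 82.7%. The upstream window of Hrasls held 46.0% and its other window 68.3%, against a median of 52.7% over all windows.

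Total estimated counts lay between 31125410 and 41636996 per mouse. They were summed to genes and divided by median-of-ratios size factors of 0.907 to 1.147, and the resulting normalized counts are given below. The test was the quasi-likelihood (QL) F-test of edgeR, run on the 22152 genes with a count of at least 1 in some mouse. A gene was called when its Benjamini-Hochberg adjusted p was under 0.05. The targeted genes followed the labels. Rtp1 had 20522, 25301 and 13543 normalized counts in the wild-type and 90.6, 85.5 and 108.8 in RTP1,2DKO (log2 fold change -7.70, SE 0.26). Rtp2 had 8497, 9511 and 7157 normalized counts in the wild-type and 58.0, 26.2 and 51.0 in RTP1,2DKO (log2 fold change -7.55, SE 0.25).

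Fgf12 was the most abundant of the members and differed most. It had 5555, 6133 and 4581 normalized counts in the wild-type and 2977, 2733 and 2787 in RTP1,2DKO, each in the order of the mouse numbers. Every RTP1,2DKO mouse was below every wild-type mouse, and the wild-type mice were spread more widely. The means were 5423 ± 784.3 (SD, n = 3) and 2832 ± 128.0 (SD, n = 3). The log2 fold change was -0.94 (SE 0.13, adjusted p = 0.000983, edgeR QL test), so that RTP1,2DKO retained 52.2% of the wild-type level.

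Mb21d2 had 1736, 1755 and 1490 normalized counts in the wild-type and 1152, 1115 and 1005 in RTP1,2DKO. The groups did not overlap. The means were 1660.0 ± 147.9 (SD, n = 3) and 1091 ± 76.2 (SD, n = 3), and the log2 fold change was -0.61 (SE 0.12, adjusted p = 0.0132, edgeR QL test). RTP1,2DKO retained 65.7% of the wild-type level.

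Hrasls was the least abundant, with 785.1, 809.1 and 729.9 normalized counts in the wild-type and 529.0, 515.4 and 455.7 in RTP1,2DKO. Again no RTP1,2DKO mouse reached a wild-type mouse. The means were 774.7 ± 40.6 (SD, n = 3) and 500.0 ± 39.0 (SD, n = 3). The log2 fold change was -0.63 (SE 0.13, adjusted p = 0.0175, edgeR QL test), which left 64.5% of the wild-type level.

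**Figure D1:**
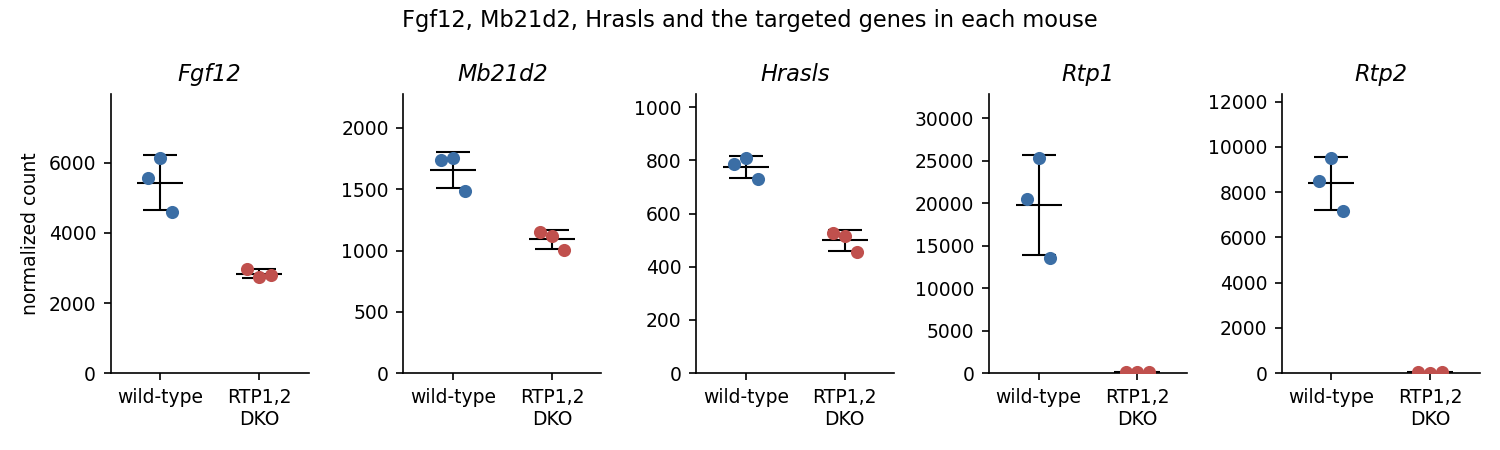
Normalized counts of Fgf12, Mb21d2, Hrasls, Rtp1 and Rtp2, with 1 point per mouse and the mean ± SD of 3 mice per group in black. The groups are apart in every panel, with Fgf12 at 4581 or more in the wild-type and 2977 or less in RTP1,2DKO.

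That all 3 were lower and called follows from their choice. Over all genes tested, 3.63% were called, and 3.19% were called lower in RTP1,2DKO. Among genes other than ORs, 1.28% were called lower. In 9.24% of all genes tested, every RTP1,2DKO mouse was below every wild-type mouse. The calls of Mb21d2 and Hrasls were close to the threshold. Without wild-type mouse 2, RTP1,2DKO mouse 2 or RTP1,2DKO mouse 3, the adjusted p of Mb21d2 was 0.0549, 0.0593 and 0.0867, and that of Hrasls was 0.0641, 0.0687 and 0.105 (the edgeR QL test). With the total counts as library sizes, the adjusted p was 0.0542 for Mb21d2 and 0.0557 for Hrasls. Fgf12 was called in each of the 14 alternative fits, with log2 fold changes between -1.05 and -0.84.

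The members also differed from each other in size of change. The ratio of Fgf12 to Mb21d2 counts was 3.20, 3.50 and 3.08 in the wild-type and 2.58, 2.45 and 2.77 in RTP1,2DKO, without overlap. The ratio of Hrasls to Mb21d2 counts was 0.452 to 0.490 in the wild-type and 0.453 to 0.462 in RTP1,2DKO, so these neighbours kept nearly the same proportion in the 6 mice. These ratios use the values that chose the members and are a description.

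TPM values, which take transcript length into account, allow levels to be set side by side between genes. In every mouse the order was Fgf12, then Mb21d2, then Hrasls. Fgf12 had 36.8, 45.9 and 21.6 TPM in the wild-type and 19.2, 13.6 and 12.8 TPM in RTP1,2DKO. Mb21d2 had 23.9, 25.7 and 14.2 TPM in the wild-type and 14.7, 11.4 and 9.25 TPM in RTP1,2DKO. On this scale wild-type mouse 3 lay below RTP1,2DKO mouse 1 for Mb21d2, so the groups overlapped. Hrasls had 11.6, 12.7 and 7.46 TPM in the wild-type and 7.24, 5.61 and 4.49 TPM in RTP1,2DKO, and there the same pair of mice differed little. TPM has a fixed total, and the 10 most abundant genes took 34.1%, 27.7% and 45.7% of it in the wild-type mice. In the RTP1,2DKO mice they took 32.1%, 40.0% and 43.0%. The part of these shares in the TPM differences between mice was not tested. On the scale of normalized counts the groups were apart for all 3 members.

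Hrasls and Mb21d2 are each represented by 1 transcript in the files, of 2915 and 3080 bases, and Fgf12 by 4, of 5408, 6250, 5544 and 2545 bases. The lengths of the 4 Fgf12 transcripts equal none of the 6 annotated in GENCODE M21, so the transcripts are named here by length and were not assigned to isoforms. The 5408-base transcript had 1429, 3747 and 1442 normalized counts in the wild-type and 797.7, 1167 and 1371 in RTP1,2DKO. Wild-type mouse 2 stood far above the other mice, with 61.1% of its Fgf12 counts on this transcript against 25.7% and 31.5% in the other wild-type mice. The 6250-base transcript had 3231, 1719 and 2092 normalized counts in the wild-type and 1182, 1166 and 1050 in RTP1,2DKO. Here too the groups did not overlap, and the log2 fold change was -1.05 (SE 0.24). The transcripts are parts of a gene chosen on this contrast, and the share of all transcripts without overlap is not given here.

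The 5544-base transcript had 834.8, 560.1 and 970.2 normalized counts in the wild-type and 923.1, 383.7 and 323.4 in RTP1,2DKO. RTP1,2DKO mouse 1 was within the wild-type range, and the log2 fold change was -0.54 (SE 0.44). The 2545-base transcript held at most 2.48% of the Fgf12 counts of any mouse. When all 33023 transcripts with a count were tested in the same way, 0.103% were called (34 transcripts, and 1 with the replicate number as a block), and none of the 6 transcripts of the members was among them. Their adjusted p was 0.605 for the 5408-base, 0.241 for the 6250-base, 0.774 for the 5544-base and 0.719 for the 2545-base transcript of Fgf12, 0.18 for Mb21d2 and 0.193 for Hrasls (the edgeR QL test). Unadjusted, 3 of the 6 were under 0.05, those of 6250 bases, Mb21d2 and Hrasls. The share of all transcripts with an unadjusted p under 0.05 is not given here. DESeq2's Wald test called these 3, among 1108 of all transcripts. The exact and likelihood-ratio tests of edgeR called the 6250-base transcript, among 380 and 447 of all transcripts. For Mb21d2 and Hrasls the counts are the same in the gene and transcript fits, and only the model of the spread and the number of tests differ. All 6 transcripts hold counts that chose the members, so these values are a description. Kallisto divides reads between transcripts that share sequence, and the sum over the 4 Fgf12 transcripts varied less among the wild-type mice than the 5408-base transcript did (SD 784.3 and 1335 normalized counts). Of the 31-base words of transcripts annotated in GENCODE M21, 99.2% for Fgf12, 99.8% for Hrasls and all for Mb21d2 occurred in no other gene. The longest Fgf12 transcript annotated there has 4137 bases, and the transcripts of the files were not searched themselves.

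**Figure D2:**
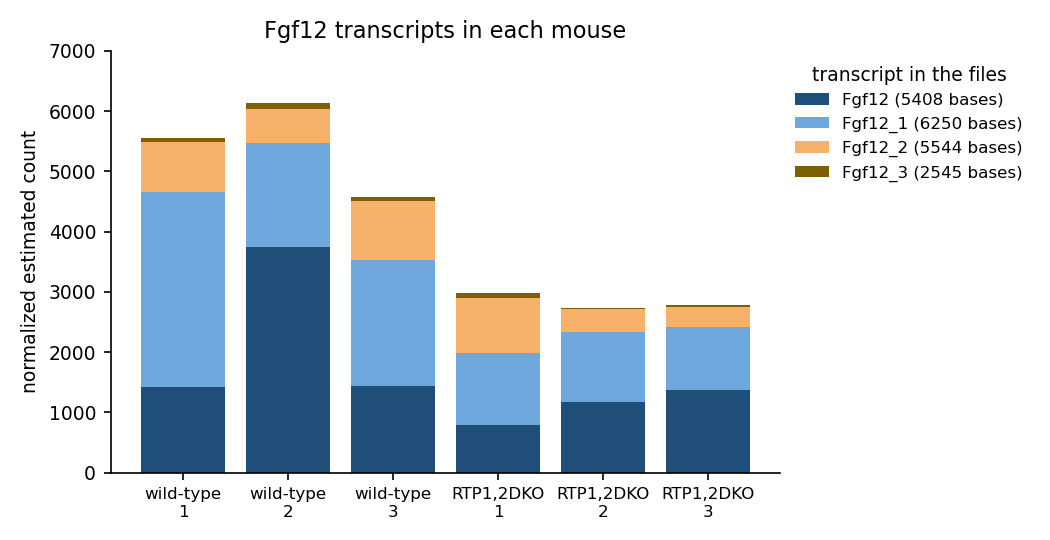
Normalized estimated counts of the 4 Fgf12 transcripts of the files, stacked for each of the 6 mice. The summed height is 4581 or more in the wild-type and at most 2977 in RTP1,2DKO, while the share of the 5408-base transcript runs from 25.7% to 61.1% in the wild-type and from 26.8% to 49.2% in RTP1,2DKO.

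Of the 251 tested genes within 10 Mb, 10 were called, which is 3.98%, against 3.63% of all genes tested. They were Rtp1, Rtp2, the 3 members and 5 of the 9 ORs tested there. Calls were common among ORs everywhere, with 804 of all 22152 genes called but only 319 of the 20953 genes other than ORs. The 5 called ORs meet the rule on position and change but are not members. The ORs lie on the other side of Rtp1, in a cluster 3.82 to 3.91 Mb from it except for Olfr19, which is 6.75 Mb away. Olfr19 had 132.4, 136.4 and 154.4 normalized counts in the wild-type and 13.7, 23.5 and 40.2 in RTP1,2DKO (log2 fold change -2.44, SE 0.34). Olfr167 and Olfr170 were also lower, with log2 fold changes of -1.31 (SE 0.15) and -1.17 (SE 0.26). Olfr168 and Olfr169, which lie between Olfr167 and Olfr170, were higher, by 0.69 (SE 0.14) and 0.67 (SE 0.15). The calls of Olfr168, Olfr169 and Olfr170 were lost when some single mice were left out, with adjusted p up to 0.104, 0.129 and 0.12 (edgeR QL test). Of 240 tested genes in the window that are neither ORs nor targeted, the edgeR QL test called 3, the members, which is 1.25%. Of all tested genes other than ORs, 1.52% were called, so this share is close to the background. DESeq2 also called Iqcg (adjusted p = 0.0364) and Etv5 (adjusted p = 0.0436) in the window, the edgeR QL test called Etv5 without wild-type mouse 1 (adjusted p = 0.0224), and it called Ranbp1 without wild-type mouse 2 (adjusted p = 0.0166). The median log2 fold change of the 200 such genes with a mean of at least 10 counts was 0.02, and that of the 18133 genes of this level over the whole table was 0.013.

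The genes nearest to the members differed little. Ccdc50, the nearest coding gene before Fgf12, had 5141, 4682 and 4557 normalized counts in the wild-type and 5444, 4639 and 4386 in RTP1,2DKO. Atp13a5, a P5-type ATPase gene only 1.32 kb past Hrasls, had 3137, 3428 and 3024 normalized counts in the wild-type and 2585, 3116 and 3197 in RTP1,2DKO. In both genes the groups overlapped. Opa1, which encodes a GTPase of mitochondrial fusion, had a log2 fold change of -0.07 (SE 0.13), and Hes1, a target of Notch signalling, one of -0.04 (SE 0.16). Of the 10 other tested genes whose lower coordinate lies within 1 Mb of the members' stretch, the edgeR QL test and DESeq2 called 0. None had an unadjusted p under 0.05. Of these, 7 had a mean of at least 10 counts, the 4 above and Ostn (0.08, SE 0.21), Atp13a4 (0.04, SE 0.52) and 4632428C04Rik (0.06, SE 0.36), and their log2 fold changes lay between -0.11 and 0.08. Mir690, Gm1968 and 9030404E10Rik had fewer counts.

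Between Rtp2 and Fgf12, 15 genes were tested and 0 were called by the edgeR QL test or DESeq2, and 0 had an unadjusted p under 0.05. The 12 of them with a mean of at least 10 counts had log2 fold changes between -0.20 and 0.29. They include Bcl6 (-0.19, SE 0.13), a transcriptional repressor gene 0.03 Mb from Rtp2, and Trp63 (0.13, SE 0.13), a marker of horizontal basal cells. Rtp4, which lies between Rtp1 and Rtp2, had a log2 fold change of 0.36 (SE 0.21, adjusted p = 0.575, edgeR QL test). With Rtp3 on another chromosome (1.33, SE 0.61, mean of 6.7 counts in the wild-type), neither of the other RTP genes was called by any of the 4 tests, and Rtp3 had an unadjusted p under 0.05. Also next to the targeted genes were Masp1 (0.30, SE 0.54), Sst (2.26, SE 0.90, mean of 8.1 counts) and St6gal1 (0.31, SE 0.12). None of these was called by the edgeR QL test. Sst and St6gal1 had an unadjusted p under 0.05 and were higher in every RTP1,2DKO mouse than in any wild-type mouse. Past Rtp2, the members are separated from the targeted genes by a stretch of 4.23 Mb without a call. The strain origin of that stretch, and of the members, was not tested.

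At the edge of the rule on change, Hrasls was the member with the highest adjusted p, and Olfr169 (0.0277) the last called gene of the window. Just outside were Iqcg (log2 fold change -0.41, adjusted p = 0.0877), a gene of motile cilia 9.08 Mb past Rtp2, Etv5 (-0.45, adjusted p = 0.104), an ETS factor gene 0.99 Mb before Rtp1, and Igf2bp2 (0.43, adjusted p = 0.148), which encodes an RNA-binding protein (the edgeR QL test). At the edge of the rule on distance, the nearest called genes outside the window were Stxbp5l, 13.18 Mb past Rtp2, and Sec14l5, 18.24 Mb before Rtp1. Stxbp5l had 3426, 2955 and 2288 normalized counts in the wild-type and 1707, 1347 and 1293 in RTP1,2DKO. Sec14l5 had 2204, 1655 and 1777 in the wild-type and 892.5, 984.6 and 842.8 in RTP1,2DKO. Both thus differed by about as much as Fgf12, with log2 fold changes of -1.0 (SE 0.16) and -1.05 (SE 0.14).

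**Figure D3:**
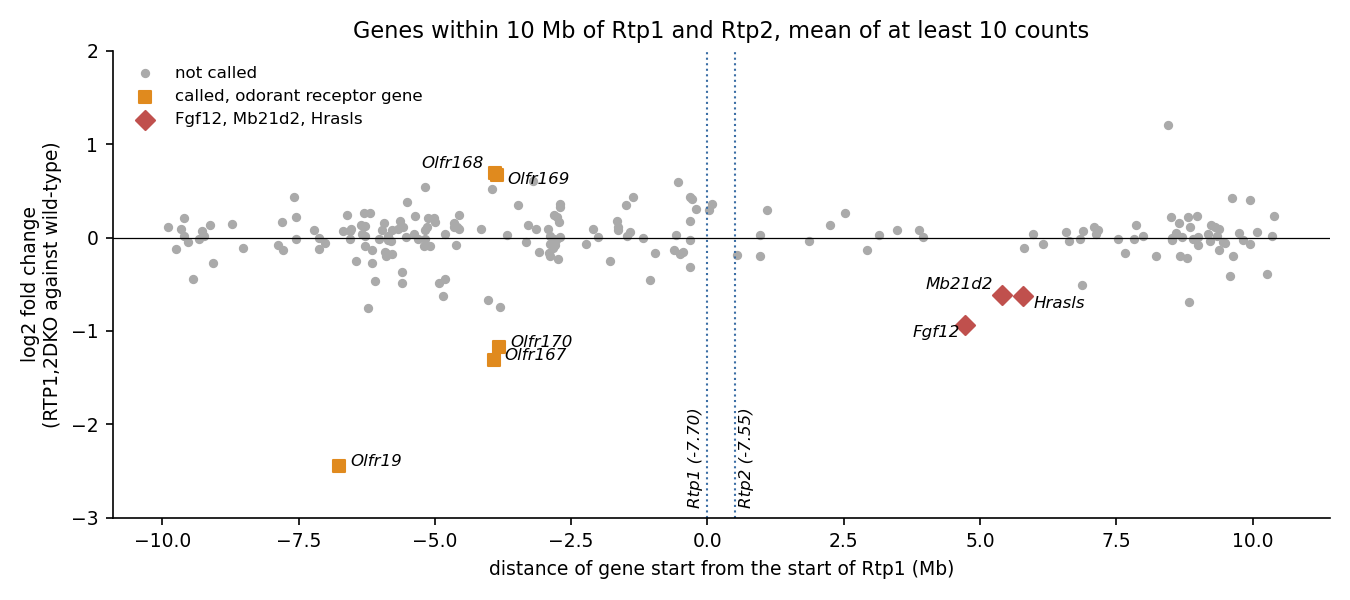
Log2 fold change of RTP1,2DKO against wild-type for tested genes within 10 Mb of Rtp1 or Rtp2 with a mean of at least 10 counts. Genes are placed by the distance of their start, taken as the lower coordinate on either strand, from that of Rtp1. Fgf12, Mb21d2 and Hrasls (red) lie at -0.94, -0.61 and -0.63, called ORs (orange) lie on the other side, and Rtp1 and Rtp2 (dotted lines) are below the plotted range, at -7.70 and -7.55.

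The relatives of the members, sodium channel subunits and enzymes of N-acylethanolamine and ether lipid metabolism were taken from fixed lists. Of the other 3 FGF homologous factor genes 0 were called by the edgeR QL test, DESeq2 or edgeR's exact and likelihood-ratio tests, and 0 had an unadjusted p under 0.05. They had far fewer reads than Fgf12. In the wild-type Fgf11 had 2.65 TPM, Fgf13 2.33 TPM and Fgf14 0.945 TPM on average, against 34.8 TPM for Fgf12. The log2 fold changes were -0.23 (SE 0.23) for Fgf11, -0.09 (SE 0.24) for Fgf13 and -0.32 (SE 0.29) for Fgf14. Errors of this size leave a change as large as that of Hrasls within about 2 SE for Fgf11 and Fgf14.

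Of 12 voltage-gated sodium channel subunit genes analysed 3 were called, all lower in RTP1,2DKO, and 9 were not. Each of the 3 other tests also called 3. Scn4b, a β subunit gene, had 2933, 4578 and 4896 normalized counts in the wild-type and 1552, 2049 and 1847 in RTP1,2DKO (log2 fold change -1.19, SE 0.18, adjusted p = 0.00217, edgeR QL test). Scn3b, also a β subunit gene, had 6635, 8043 and 7919 in the wild-type and 4123, 4332 and 4058 in RTP1,2DKO (log2 fold change -0.85, SE 0.12, adjusted p = 0.00101, edgeR QL test). The α subunit gene Scn8a had a log2 fold change of -0.94 (SE 0.14). In these genes the groups did not overlap. Scn9a, the α subunit gene with the highest level, had 23122, 17956 and 14501 normalized counts in the wild-type and 16144, 10496 and 13154 in RTP1,2DKO. Here the groups overlapped, and the gene was not called (log2 fold change -0.48, SE 0.19, adjusted p = 0.284, edgeR QL test). Of the others, Scn2a (-0.41, SE 0.16) and Scn3a (-0.28, SE 0.12) had an unadjusted p under 0.05. Scn1a (-0.51, SE 0.32), Scn2b (-0.18, SE 0.21), Scn7a (-0.07, SE 0.13), Scn4a (0.26, SE 0.48) and Scn11a (0.28, SE 0.33) did not, and Scn10a had a mean of 1.4 counts in the wild-type. The median log2 fold change of the 12 was -0.35, against 0.016 over all genes tested.

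The relatives of Hrasls and Mb21d2 had no calls (edgeR QL test). Pla2g16, which encodes another HRAS-like suppressor, had a log2 fold change of 0.14 (SE 0.14) at 11.0 TPM in the wild-type, close to the 10.6 TPM of Hrasls, and Hrasls5 had 2.9 counts on average. Neither was called by any of the 4 tests or had an unadjusted p under 0.05. Of 12 genes for enzymes of N-acylethanolamine and ether lipid metabolism 0 were called by any of the 4 tests, and 0 had an unadjusted p under 0.05. Their log2 fold changes lay between -0.24 (Faah, which degrades N-acylethanolamines) and 0.41 (Gdpd3), with -0.15 (SE 0.17) for Napepld, which forms them, and a median of -0.04. Of the other 4 genes of the Mab-21 family 0 were called by any of the 4 tests and 0 had an unadjusted p under 0.05. Mb21d1 had a log2 fold change of 0.48 (SE 0.26), Mab21l1 of 0.17 (SE 0.16), Mab21l3 of -0.27 (SE 0.32) and Mab21l2, at 21.0 counts in the wild-type, of -1.11 (SE 0.51).

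Markers of mature OSNs moved in the same direction as the members. Of 12 markers 11 were called lower and 1, Gng13, was not (log2 fold change -0.76, SE 0.22, adjusted p = 0.0924, edgeR QL test). Their median log2 fold change was -1.0 and their range was -2.0 (Stoml3) to -0.56 (Gfy), and 7 of the 12 had a lower value than Fgf12 and 11 of the 12 a lower value than Mb21d2 and Hrasls. The summed count of the list was 183072 to 209736 in the wild-type and 95034 to 102332 in RTP1,2DKO (two-sided exact permutation test, p = 0.1 without pairs and p = 0.25 within pairs of mice with the same number, the lowest values possible with 3 mice per group). None of the markers was at 0, with Omp, the olfactory marker protein gene, at 64807 normalized counts in the wild-type and 34635 in RTP1,2DKO on average. In these whole-tissue libraries, fewer cells of a type and less RNA per cell cannot be told apart. The part of the OSN markers in the lower counts of the members was not tested.

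Set against the mean log2 count of the 12 markers in the same mouse, Fgf12 was at -0.69, -0.67 and -0.86 in the wild-type and at -0.56, -0.70 and -0.58 in RTP1,2DKO, and the groups overlapped. Mb21d2 was at -2.37, -2.48 and -2.48 in the wild-type and at -1.93, -2.00 and -2.05 in RTP1,2DKO. Hrasls was at -3.52, -3.59 and -3.51 in the wild-type and at -3.05, -3.11 and -3.19 in RTP1,2DKO. Relative to these markers, Mb21d2 and Hrasls were thus higher in every RTP1,2DKO mouse, by 0.45 and 0.42 on average on the log2 scale. These differences also use the counts that chose the members and were not tested. The median log2 fold change was 0.016 over all genes tested and -1.0 over the markers. A gene at the median of all genes would thus also be higher relative to the markers. Being higher on this scale is therefore not particular to Mb21d2 and Hrasls.

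**Figure D4:**
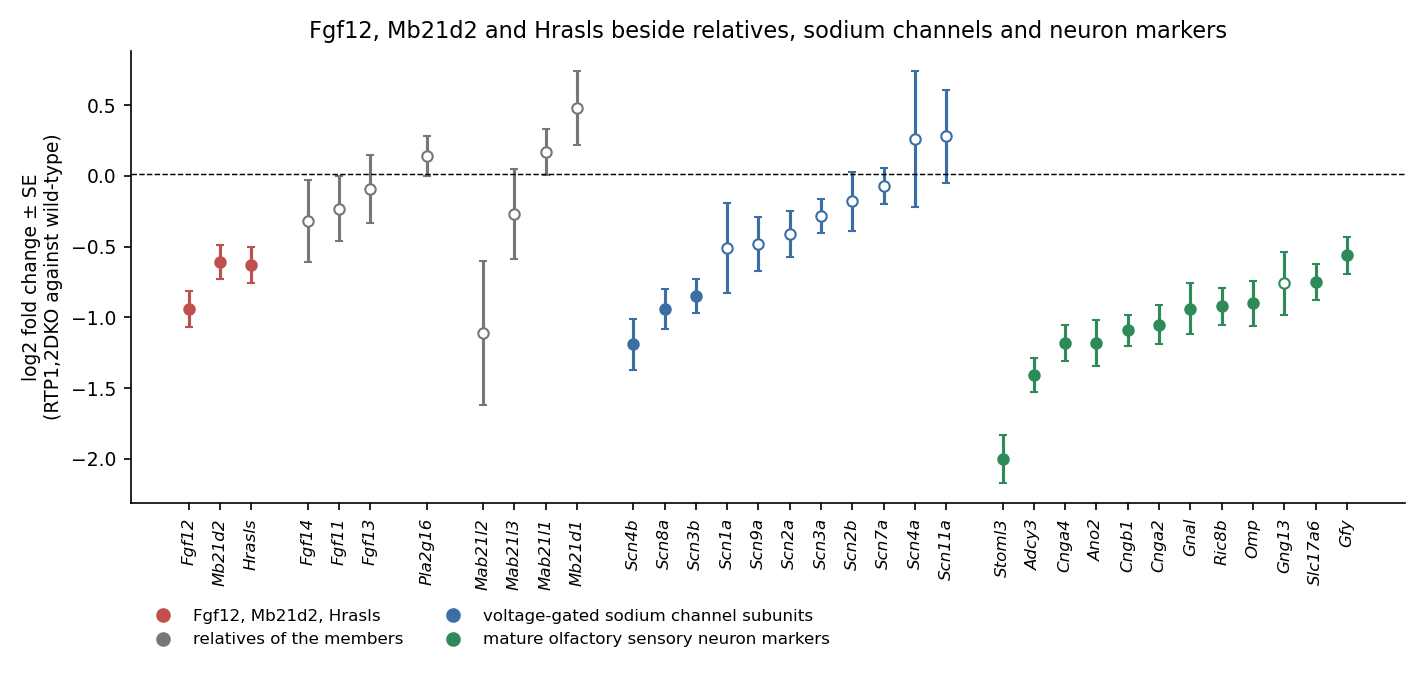
Log2 fold change ± SE of RTP1,2DKO against wild-type for Fgf12, Mb21d2 and Hrasls (red), their relatives (grey), sodium channel subunits (blue) and mature OSN markers (green) with a mean of at least 10 counts. Filled points were called, the dashed line is the median of all genes tested (0.016), and the members at -0.94 to -0.61 lie within the range of the OSN markers.

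Markers of immature OSNs and progenitors were not called lower. Of 9 immature OSN markers 2 were called, both higher, Gap43 (log2 fold change 0.58, SE 0.14, adjusted p = 0.0427) and Gng8 (0.91, SE 0.18, adjusted p = 0.0125, both in the edgeR QL test). DESeq2 called 4 of the 9 and edgeR's other tests 2. The log2 fold changes of the 9 had a median of 0.27 and ran down to -0.25 for Ncam1 (SE 0.15) and -0.22 for Dcx (SE 0.20), neither of which was called by the edgeR QL test. The summed count of the 9 overlapped between the groups. Of 5 progenitor markers 0 were called, although 5 had an unadjusted p under 0.05 and DESeq2 called 1 and edgeR's other tests 0. Their summed count was 4271 to 5660 in the wild-type and 6334 to 8592 in RTP1,2DKO (exact two-sided permutation test, p = 0.1 without pairs and p = 0.25 within pairs). Of the 5 erythrocyte markers 0 were called, with 5 at an unadjusted p under 0.05, 2 called by DESeq2 and 1 by each of edgeR's other tests. Their summed count was 57894 to 94381 in the wild-type and 92242 to 169783 in RTP1,2DKO, and the groups overlapped slightly. The lists for horizontal basal, sustentacular, motile ciliated, ensheathing glial, skeletal muscle, macrophage and endothelial cells had 0 calls in each of the 4 tests. Of their genes, only Tekt1 (-0.40, SE 0.17) had an unadjusted p under 0.05. Their medians lay between -0.18 (motile ciliated cells) and 0.06 (horizontal basal and ensheathing glial cells), and in each of these lists the summed counts overlapped between the groups. The part of these cell types in the lower counts of the members was not tested.

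Across the 6 mice, the genes whose log2 counts were most like those of each member were taken from the 15429 other genes with a mean of at least 50 counts. For Fgf12 these were Olfr1104 (Pearson's r = 0.9989), Camk2d (0.9978), which encodes a calcium/calmodulin-dependent kinase subunit, and Olfr1148 (0.9978). For Mb21d2 they were Rgs6 (0.9979), a regulator of G protein signalling, Olfr668 (0.9967) and Kcnn2 (0.9964), a calcium-activated potassium channel. For Hrasls they were Olfr921 (0.9999), Olfr1412 (0.999) and Olfr693 (0.9989). All of these genes were called lower in RTP1,2DKO, and such values of r over 2 groups of 3 mice rest mainly on the difference between the groups. The members correlated with each other at 0.976 for Fgf12 with Hrasls, 0.984 for Fgf12 with Mb21d2 and 0.993 for Hrasls with Mb21d2. Among all genes compared, Mb21d2 ranked 57th and Hrasls 124th in likeness to Fgf12, while Mb21d2 ranked 21st for Hrasls and Hrasls 16th for Mb21d2.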

How the data were processed

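RNA-Seq of olfactory mucosa from 3 wild-type and 3 RTP1,2DKO mice was analysed, grouped by the sample labels. The authors ran kallisto on mouse transcripts from UCSC with extended OR annotations and deposited, for each transcript and mouse, an estimated count and a TPM value, which has a fixed total per mouse. The submitters' processing notes name mm10, and the version of kallisto is not given in the sources used here. The labels and the methods name different library kits, and strand-specific counting is not stated. Estimated counts were summed to genes, rounded to whole numbers and, with DESeq2 1.42.0 median-of-ratios size factors, tested in edgeR 4.0.16 (quasi-likelihood test, R 4.3.3, Benjamini-Hochberg adjustment over all genes, threshold 0.05). The transcript counts were tested in the same way. TPM was used for levels between genes and, for the members, was also compared between mice without a test. Exact permutation tests over mice used scipy 1.17.1. Gene positions came from GENCODE M21, with 23897 of the 24661 genes matched by symbol, and promoter windows from RefSeq. The main fit was tested on simulated data with 200 genes changed, and 9.09% of its calls were false, above the threshold of 0.05. It recovered 96.7% of genes at a fold of 0.25, 75.0% at 0.5, 82.9% at 2 and 100.0% at 4. Smaller changes, such as those of Mb21d2 and Hrasls, were not simulated.

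The members and all gene lists were chosen with earlier results of these data known. Genes named are the members, the targeted genes, tested genes within 1 Mb of the members, called genes within 10 Mb of Rtp1 or Rtp2 and the 3 with the lowest p not called there, the nearest called genes outside, listed genes at or above a mean of 10 counts, and the 3 genes most like each member. Bcl6, Masp1, Sst, St6gal1, Gng13, Gfy, Gap43, Gng8, Ranbp1 and Tekt1 were named after their values were seen. Some genes of the lists are not reported here. The fits reported are without pairs, and a fit with the replicate number as a block was an alternative. The numbers met the criterion set for pairing. The methods describe sex-matched littermates, and deviations from the group means over 18133 genes correlated at 0.139, 0.179 and 0.103 for mice numbered 1, 2 and 3. For mice with different numbers the correlations ran from -0.219 to 0.093, so the last lay close to the 0.103 of mice numbered 3. The alternatives were TMM, total counts as library sizes, a filter on low counts, DESeq2 (Wald test), the exact and the likelihood-ratio test of edgeR, the replicate block, windows of 5 and 20 Mb and each mouse left out. The older form of edgeR's quasi-likelihood fit and the permutation within pairs were added after the data were seen. Precision is limited by 3 mice per group.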

Additional observations from a re-analysis of the deposited data

How the results depend on the processing

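Fgf12, Rtp1 and Rtp2 kept their direction and their call in all 14 alternatives, and Hrasls and Mb21d2 kept their direction in all 14 and their call in 10. With total counts as library sizes, which move the median of all genes from 0.016 to -0.018 on the log2 scale, Hrasls (-0.67) and Mb21d2 (-0.64) were no longer called. The cause was not tested. With single mice left out, the log2 fold change was -1.05 to -0.84 for Fgf12, -0.67 to -0.57 for Hrasls, -0.68 to -0.55 for Mb21d2, -7.91 to -7.49 for Rtp1 and -7.77 to -7.27 for Rtp2.

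With the replicate block, which pairs the mice by number, the log2 fold change was -0.93 for Fgf12, -0.63 for Hrasls, -0.60 for Mb21d2, -7.66 for Rtp1 and -7.56 for Rtp2, and no call of these genes changed. The block moved the genes called higher from 97 to 150 and the transcripts called from 34 to 1.

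Of the genes within 10 Mb, 10 were called, 12 with DESeq2, 6 with total counts as library sizes, 5 to 9 with single mice left out (5 without RTP1,2DKO mouse 3), 8 in a window of 5 Mb and 14 in one of 20 Mb. Olfr168 and Olfr169 lost their call with total counts as library sizes. With single mice left out, Olfr168 lost it without wild-type mouse 1 or RTP1,2DKO mouse 1 or 3, Olfr169 without wild-type mouse 2 or 3 or RTP1,2DKO mouse 1 or 3, and Olfr170 without wild-type mouse 1 or 3 or RTP1,2DKO mouse 2 or 3. With total counts, DESeq2, the exact test and the likelihood-ratio test, 40, 217, 147 and 169 genes were called higher, against 41 to 103 with single mice left out (61 without wild-type mouse 1, and 42, 45 and 41 without RTP1,2DKO mice 1, 2 and 3). All calls numbered 804, and 524 to 716 with single mice left out, with the fewest without RTP1,2DKO mouse 3. Of all transcripts, 13, 1108, 380 and 447 were called in those 4 fits, 8 in the older quasi-likelihood fit and 0 to 10 with single mice left out. Transcripts of the members were called 3 times with DESeq2 and 1 time each with the exact and likelihood-ratio tests. The calls of Hrasls and Mb21d2 depended on which mice were kept, and the smallest difference that 3 mice per group can detect was not measured.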
